A study of Mus musculus with 72 samples.

Results

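Genes named Zfp with a number encode mouse proteins of the zinc finger class. The set described here holds the genes whose annotated symbol is Zfp followed by a 3-digit number from 400 to 999 and at most 1 trailing letter, with 1 gene of that form left out by the rule. The choice used names only and no measured value. It gave 201 of the 18194 genes that the arrays name through a probe set with a single symbol, measured by 357 of 45101 probe sets. A probe set is a group of short probes for the same transcript, and where a gene had several, the one with the highest mean over the 72 arrays stood for it.

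The arrays had been hybridised with RNA of whole brain and whole liver from males of the inbred mouse strains C57BL/6J, DBA/2J and 129S2. Tissue was taken from embryos at E14.5, from pups at P1 and P7 and from adults labelled P90, which gave 24 groups of 3 arrays each. P90 is a nominal age, since the adults are recorded with an age range of several weeks, the same for all adult arrays. The age behind each adult array is not given, so adult arrays may differ in age within and between groups. The adults had been bought, and the 3 younger stages came from animals bred from bought stock. No group carried a transgene or had been treated, and nothing in the labels says whether the 3 arrays of a group were 3 animals, so p-values measure the spread between arrays, which may in part be technical. The series asked how copy number differences among the strains relate to expression over development.

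Most proteins of this kind bind DNA through rows of C2H2 fingers, each of which holds a zinc ion and contacts a few bases. Many also carry a KRAB domain, which recruits the corepressor Trim28 and through it histone methylation, heterochromatin protein and deacetylases, and the family is best known for silencing retroelements and guarding imprints in the embryo. Others have no KRAB domain and act as developmental regulators, among them factors of the forebrain, the cerebellum and fat cells. KRAB genes lie in clusters on a few chromosomes and differ among mouse strains in sequence and number.

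The members were spread unevenly over the genome. All 201 matched the RefSeq annotation of GRCm38.p6, 199 as protein-coding genes, Zfp783 as a long non-coding RNA and Zfp572 as a transcribed pseudogene. Chromosome 7 held 56 members, 27.9% of them beside 9.27% of all protein-coding genes, and chromosome 17 held 27 (13.4% beside 4.84%). Chromosomes 13 and 8 held 16 each. Among protein-coding genes, 71 members had another member as direct neighbour, in 26 runs of up to 4 genes, such as Zfp871, Zfp811, Zfp799 and Zfp870 on chromosome 17. RefSeq promoters (300 bases, 250 before the start and 50 after it) were at hand for 165 members. The median promoter of a member held 15 CpG dinucleotides, beside 7 over 27025 genes, and the motif GGGCGG stood on either strand in 50.3% of members and 35.9% of all genes. CCAAT stood on either strand in 45.5% and 37.9%, and TATAAA in 4.85% and 14.2%. These shares describe letters and were not tested.

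The signals were log2 values with a separate scale in each of the 8 combinations of tissue and stage. The array medians ran from 7.30 in E14.5 brain down to 5.03 in P90 liver. Differences between stages and tissues are therefore given as sizes after quantile normalization, without a test. A gene counts as higher or lower where each of the 3 strains showed a difference of 2-fold or more, all in one direction. Strain differences lie within a scale and were tested. A gene was called at an adjusted p below 0.05 and at least 1.5-fold (limma, Benjamini-Hochberg over all genes tested). Neuron markers averaged 3.89 to 5.74 log2 units above the array median in brain and stayed below the median in liver, where hepatocyte markers stood 6.69 to 9.25 above it and in brain 0.61 to 2.65. By the 400 probe sets that best separate the strains, all 72 arrays resembled their own strain most. The weakest likeness was in replicate 2 of P90 129S2 brain (r = 0.33 with the 129S2 profile of the other brain stages), and the next lowest was 0.63. Results that rest on that array are given with and without it.

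Against all genes, the members were more often above the array median in brain and less often in liver. At E14.5 in brain, 153 of 201 stood above the array median (76.1%, beside 63.1% of all genes), and at P90 138 did (68.7%, beside 61.3%). In liver the number was 124 at E14.5 (61.7%, beside 64.8%), 111 at P1 (55.2%, beside 65.6%) and 118 at P90 (58.7%, beside 62.7%). A gene entered the comparisons of a tissue when its highest group mean exceeded the array median, which 167 members did in brain and 147 in liver. 28 entered neither, among them Zfp572, Zfp819 and Zfp708. The highest signals in both tissues belonged to Zfp622, a factor of ribosome assembly, to Zfp445, which protects imprinted methylation, and to Zfp871. Zfp445 averaged 4.91 log2 units above the array median in brain and 4.56 in liver, and Zfp622 4.79 and 5.07.

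Between the fetal and the adult brain, the members were more often lower than higher. 40 of the 167 were lower by 2-fold or more at P90 (24%, beside 16% of all genes tested) and 5 were at least 2-fold higher (2.99%, beside 13.3%). The median member differed by -0.48 on the log2 scale, the median of all genes by -0.18. Of the 167, 120 lay below the median of all genes. On the values as deposited, where all genes shift by -0.91 in brain and -1.63 in liver, 98 members were lower and none higher, but relative to the median of all genes the members stood at -0.32 there and at -0.30 after quantile normalization. In all 40 lower members, every one of the 9 adult arrays lay below every fetal array, as in 98.8% of all genes 2-fold lower. Leading the list were Zfp618, a protein that binds hydroxymethylated DNA together with Uhrf2, and Zfp462, a chromatin regulator required for normal brain development.

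**Figure D1:**
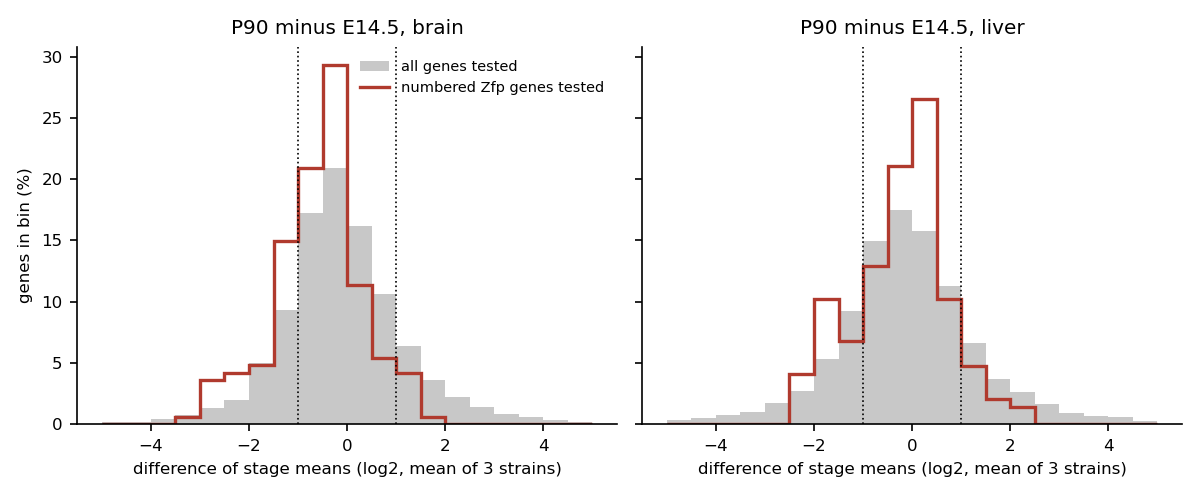
Share of genes in bins of 0.5 log2 units (y axis, %) by the difference between P90 and E14.5 (x axis, log2, mean of 3 strains), for all genes tested (grey) and the tested Zfp genes (red line), in brain and in liver. Dotted lines mark 2-fold. In brain the red line is shifted to the left, with medians of -0.48 against -0.18, and in liver the medians are -0.23 and -0.15.

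Zfp618 signals in brain ran from 10.07 to 11.04 (median 10.62) over the 9 fetal arrays and from 7.20 to 7.56 (median 7.41) over the 9 adult arrays. The stages were far apart and P1 (8.96 to 9.82) and P7 (8.62 to 8.92) lay between them. The difference was -3.21 ± 0.08 (SD over 3 strains). Zfp462 was 11.92 to 12.10 at E14.5 and 8.99 to 9.30 at P90, with a difference of -2.86 ± 0.05. Its steps were alike in size, -0.96 up to P1, -0.80 up to P7 and -1.10 up to P90.

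The next members in order of size were Zfp608 (-2.71 ± 0.16), Zfp647 (-2.70 ± 0.13), Zfp503 (-2.69 ± 0.04), Zfp423 (-2.63 ± 0.38), Zfp558 (-2.51 ± 0.31) and Zfp811 (-2.41 ± 0.02). Zfp503 acts in the developing striatum and Zfp423 in precursors of the cerebellum and of fat. Zfp558 differed in timing, though at low signals. Its step from P1 to P7 was -1.60. It was the only tested member at least 2-fold apart over that step in brain, where 1.67% of all genes were. Both ends of the step (5.72 to 6.55 at P1 and 4.34 to 4.85 at P7) lay below the array median. The gene entered through E14.5, and the stricter filter removed it.

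The list of known neural regulators held 11 genes, 9 of them on the array by the naming rule and all 9 tested in brain. 6 were at least 2-fold lower at P90, none higher, and their median was -2.26. They were Zfp618, Zfp462, Zfp503, Zfp423, Zfp521 (-2.26), which steers early neural and blood fates, and Zfp536 (-1.46), a repressor of neuronal differentiation. Zfp592, part of a chromatin reader complex, stood at -0.85. Zfp703 (0.19) and Zfp804a (0.18) had nearly the same level at both ends. Zfp804a, known from genetic studies of schizophrenia, was instead highest between them, with medians of 8.06 at E14.5, 9.22 at P1, 9.13 at P7 and 8.26 at P90. The list was chosen with earlier results of these data known, so its count describes and supports nothing.

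Of the 40 lower members, 33 had a negative mean difference at each of the 3 steps, and no share over all lower genes was computed. The counts by step below cover all 167 tested members, not only the 40. Zfp516 and Zfp664, named below, were not among the 40. Over the first step, from E14.5 to P1, 7 members were 2-fold apart (8.08% of all genes were), 6 lower and 1 higher (beside 3.29% and 4.78% of all genes), led by Zfp516 (-1.49), a factor of brown fat, and Zfp664 (-1.36). From P7 to P90, 19 were apart (13.9% of all genes), 11 lower and 8 higher (beside 9.41% and 4.49%). Zfp451 (-2.16), a ligase of the SUMO pathway, Zfp995 (-1.88) and Zfp711 (-1.77), an activator linked to X-linked intellectual disability, were lowest in this last step. 59 of the 167 members had a negative mean difference at each of the 3 steps (35.3%, beside 19.8% of all genes) and 3 a positive one at each (1.8%, beside 16%).

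The 5 members at least 2-fold higher in adult brain were Zfp941 (1.84 ± 0.22), Zfp551 (1.45 ± 0.36), Zfp940 (1.40 ± 0.08), Zfp931 (1.13 ± 0.10) and Zfp874b (1.12 ± 0.08). Zfp941 stayed between 6.27 and 6.96 in all 27 arrays from E14.5 to P7 and stood at 8.29 to 8.66 in the adult, so that nearly the whole difference came after P7. Zfp940 showed the same late step of 1.21. Zfp551 was less uniform, since its adult arrays ran from 6.39 to 7.90 and overlapped the fetal ones (5.68 to 6.78), as those of Zfp931 did (7.99 to 9.69 beside 7.34 to 8.56). Zfp931 and Zfp874b had made most of their difference by P1 (0.67 and 0.98). Up to P7 the signals of Zfp941 and Zfp940 (5.74 to 6.36) and the stage medians of Zfp551 lay below the array median. The filter admitted these members through adult groups, where they are high, so their being higher there was in part selected. The stricter filter left fewer adult-higher members, as given below.

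**Figure D2:**
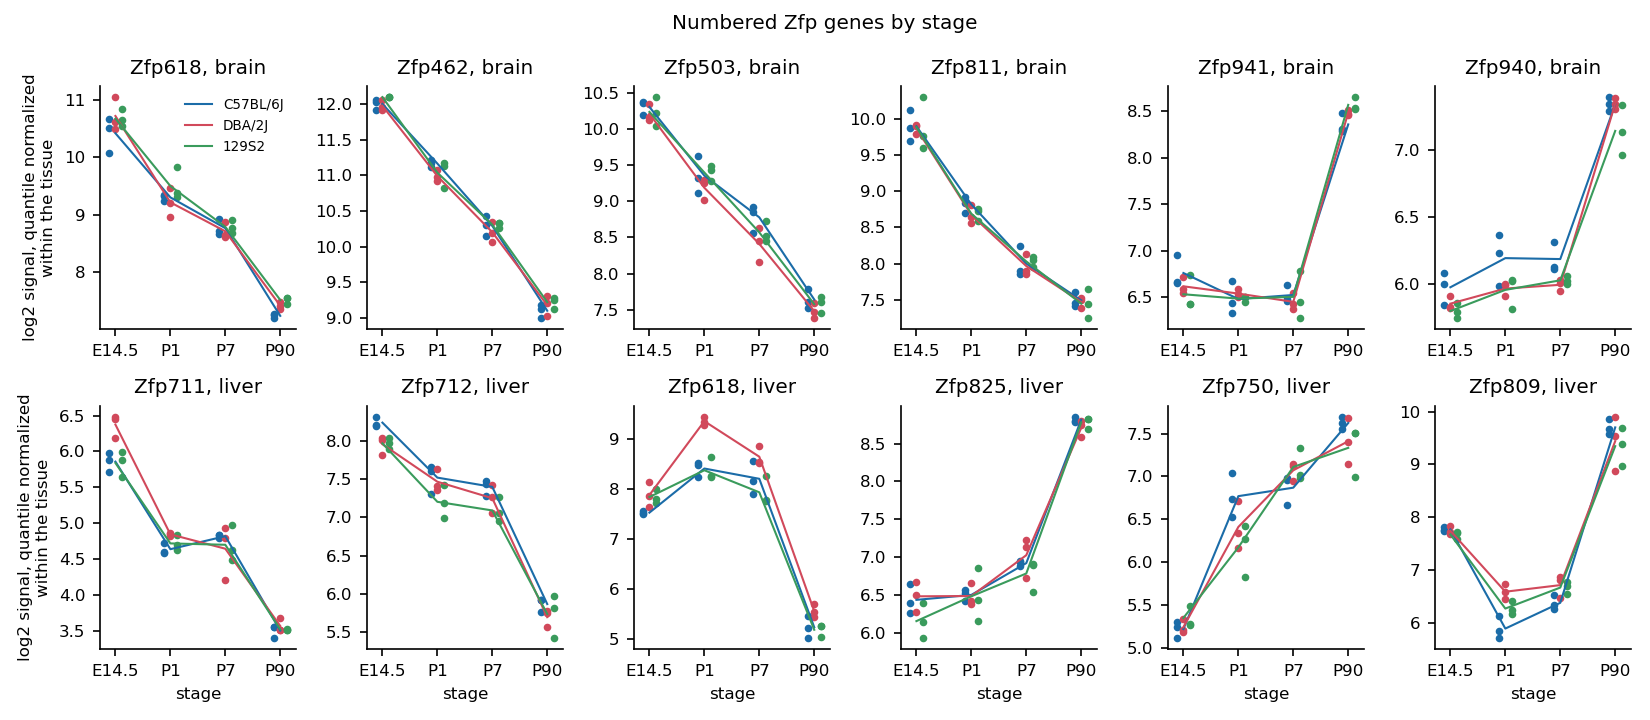
Signal (y axis, log2, quantile normalized within the tissue) by stage (x axis) for 6 members in brain and 6 in liver. Points are arrays, lines join the means of 3 arrays of a strain, and the y axes differ. Zfp618 in brain goes from a median of 10.62 at E14.5 to 7.41 at P90, Zfp941 is higher only at P90, and Zfp809 in liver is lowest at P1 and highest at P90.

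Several cell marker lists moved with these stages. Of 7 cell cycle genes tested, 6 were at least 2-fold lower in adult brain (median -5.28), and all 6 neural progenitor markers were (median -2.38). Of 7 neuron markers 5 were higher and 1 was lower, and 4 of 5 astrocyte markers were higher. Of all genes tested, 16% were lower and 13.3% higher. Progenitor markers averaged 3.59 log2 units above the array median at E14.5, 1.63 at P1, 1.15 at P7 and 0.73 at P90. In whole tissue, fewer cells of a type and less RNA per cell cannot be told apart. The part of these cell types in the members' differences was not tested.

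Genes listed for the KRAB repression pathway were often lower. The list was chosen with earlier results of these data known, so its counts describe and support nothing. Of 19 genes of this repression pathway, all tested, 13 were at least 2-fold lower in adult brain (beside 16% of all genes). None was higher (beside 13.3%), and the median was -1.53. Trim28, the corepressor itself, differed by -1.59 ± 0.05, the heterochromatin protein gene Cbx1 by -1.77 ± 0.11, and the deacetylase genes Hdac1 and Hdac2 by -2.18 ± 0.24 and -1.99 ± 0.06. Uhrf1 (-6.16 ± 0.54) and Dnmt1 (-1.80 ± 0.13), which copy methylation at replication, were lower as well. Setdb1, the histone methyltransferase of the pathway, was at -0.45 ± 0.04 and did not reach 2-fold. In liver 8 of the 19 were lower (beside 18.9% of all genes) and none higher (beside 15.2%). Trim28 stood at -2.06 ± 0.10 there and Dnmt1 at -4.28 ± 0.30.

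Of 32 pairs of neighbouring members tested in brain, 2 were made of genes both at least 2-fold lower in the adult (6.25%, beside 2.47% of all neighbour pairs tested). Members as such were lower more often than other genes (24% beside 16%), so the pairs are given as examples and nothing is read from their number. Zfp811 (-2.41) and Zfp799 (-2.05) lie side by side on chromosome 17, and Zfp963 (-1.68) and Zfp866 (-1.88) on chromosome 8. Zfp799 ran from 10.19 to 10.62 at E14.5 and from 7.96 to 8.44 at P90. Zfp866 ran from 9.78 to 10.28 and from 8.04 to 8.29. In both genes the 2 stages were well apart. In liver, Zfp811 was not tested, Zfp799 stood at -0.36, Zfp963 at 0.30 and Zfp866 at -0.90, so neither pair was 2-fold lower together there. The promoters of these 4 genes are shown because both genes of each pair were lower in adult brain, and that of Zfp618 because it had the largest difference. They are RefSeq sequences on GRCm38.p6, each 300 bases from the minus strand except Zfp618, which is on the plus strand, at chr17:32809882-32810181 (Zfp811), chr17:32830212-32830511 (Zfp799), chr8:69749913-69750212 (Zfp963), chr8:69774862-69775161 (Zfp866) and chr4:62965317-62965616 (Zfp618). Capitals mark the 3 motifs named above, on either strand.
Zfp811: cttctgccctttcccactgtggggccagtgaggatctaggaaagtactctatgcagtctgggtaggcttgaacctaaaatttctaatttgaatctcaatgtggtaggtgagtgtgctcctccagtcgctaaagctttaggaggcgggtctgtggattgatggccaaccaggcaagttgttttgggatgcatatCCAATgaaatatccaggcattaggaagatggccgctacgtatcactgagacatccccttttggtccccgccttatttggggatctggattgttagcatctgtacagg
Zfp799: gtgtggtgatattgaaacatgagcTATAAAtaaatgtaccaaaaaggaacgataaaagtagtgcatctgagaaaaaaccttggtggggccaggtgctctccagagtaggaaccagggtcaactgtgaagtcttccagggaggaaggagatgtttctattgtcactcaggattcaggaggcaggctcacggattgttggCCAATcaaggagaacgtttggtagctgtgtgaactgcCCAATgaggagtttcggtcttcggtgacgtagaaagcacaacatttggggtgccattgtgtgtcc
Zfp963: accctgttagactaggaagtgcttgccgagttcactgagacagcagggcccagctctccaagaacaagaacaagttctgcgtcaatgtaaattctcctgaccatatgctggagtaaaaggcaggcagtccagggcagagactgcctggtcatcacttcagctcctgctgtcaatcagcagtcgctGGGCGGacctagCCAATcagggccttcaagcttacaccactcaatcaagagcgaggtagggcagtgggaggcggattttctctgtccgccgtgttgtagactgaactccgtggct
Zfp866: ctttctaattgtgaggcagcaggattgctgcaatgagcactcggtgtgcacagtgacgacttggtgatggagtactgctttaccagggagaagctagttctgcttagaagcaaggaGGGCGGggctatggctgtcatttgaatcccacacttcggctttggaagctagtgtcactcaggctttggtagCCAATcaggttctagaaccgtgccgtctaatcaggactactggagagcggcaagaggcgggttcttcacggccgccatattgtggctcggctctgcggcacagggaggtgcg
Zfp618: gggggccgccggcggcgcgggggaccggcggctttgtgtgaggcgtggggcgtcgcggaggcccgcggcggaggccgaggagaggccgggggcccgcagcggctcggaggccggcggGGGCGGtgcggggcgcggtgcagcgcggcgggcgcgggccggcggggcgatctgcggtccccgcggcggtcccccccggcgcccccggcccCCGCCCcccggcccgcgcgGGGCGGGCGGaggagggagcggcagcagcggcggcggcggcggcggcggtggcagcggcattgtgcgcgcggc
Each of the 4 neighbours held at least 1 CCAAT, which 37.9% of all promoters do, and Zfp799 held 2. GGGCGG stood once in Zfp963 and once in Zfp866 and in neither gene of the other pair. TATAAA stood only in Zfp799. The Zfp618 promoter was of another kind, with 59 CpG, 88.0% G and C and 4 GGGCGG matches, while the 4 neighbours held 5 to 13 CpG.

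In liver the members did not stand out from other genes in the count of lower ones. 25 of 147 were lower by 2-fold or more at P90 (17%, beside 18.9% of all genes tested) and 11 were higher (7.48%, beside 15.2%). The median member differed by -0.23 and the median gene by -0.15. With the probe sets of each gene averaged, 13 were lower. The lowest were Zfp711 (-2.49 ± 0.27), Zfp618 (-2.43 ± 0.20), Zfp800 (-2.33 ± 0.25), Zfp712 (-2.29 ± 0.07), Zfp783 (-2.24 ± 0.02), Zfp979 (-2.11 ± 0.07), Zfp850 (-1.95 ± 0.13) and Zfp697 (-1.90 ± 0.21). After E14.5 the liver arrays of Zfp711, Zfp979 and Zfp850 lay below the array median. The filter admitted these genes only through E14.5, where they are high, so their being lower at P90 was in part selected. Blood formation leaves the liver over this span, and all 7 erythroid markers (median -7.85) and all 7 cell cycle markers tested (median -6.87) were lower. Their part in the members' differences was not tested.

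Of the 25 lower members, 15 had a negative mean difference at each step, again without a share over all lower genes. Others followed different courses. Zfp979 had its whole difference before birth or at it, with a step of -2.46 up to P1. Zfp618 was first higher at P1 (8.24 to 9.45, beside 7.51 to 8.15 at E14.5) and then much lower at P90 (5.02 to 5.70), a last step of -2.94. From E14.5 to P1, 15 members were apart (14.2% of all genes), 11 lower and 4 higher (beside 5.31% and 8.93%), with Zfp612 the highest at 2.02. Between P1 and P7 no tested member was 2-fold apart, where 1.8% of all genes were. From P7 to P90, 12 were apart (16.7% of all genes), 9 lower and 3 higher (beside 11.9% and 4.79%).

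The 11 members higher in adult liver were led by Zfp825 (2.41 ± 0.20), Zfp750 (2.18 ± 0.21), Zfp809 (1.76 ± 0.14) and Zfp467 (1.76 ± 0.59). Zfp750, a factor of skin differentiation, had gained 1.18 of this by P1. Zfp467, a regulator of the choice between fat and bone, had the widest spread over strains, since it also differed among them. Zfp946 (1.53), Zfp707 (1.48), Zfp945 (1.39) and Zfp768 (1.36) followed.

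Zfp809 silences mouse leukaemia viruses through a site in their primer binding sequence, and its course in liver turned round after birth. It stood at 7.60 to 7.84 at E14.5, at 5.72 to 6.75 at P1, at 6.26 to 6.87 at P7 and at 8.88 to 9.90 at P90. The ranges of P1 and P7 overlapped, while the fetal range lay above both and the adult range above all. The steps were -1.48, 0.34 and 2.90. In brain it stood at 7.44 to 7.74 at E14.5 and 8.48 to 8.74 at P90, a difference of 0.99 that missed 2-fold in at least 1 strain.

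Of the 7 listed repressors of retroelements, imprints and the Igf2 promoter, 5 were tested in each tissue, and they did not move as a group. In brain 1 was lower and none higher (median -0.37), and in liver 1 was lower and 1 higher (median -0.77). Zfp568, which silences a fetal promoter of Igf2, was the lower one in both (-1.35 in brain, -1.53 in liver). Zfp445 stayed within 2-fold in both (-0.37 and 0.36), as did Zfp961, a repressor of retroviral sequences (-0.78 and -0.77). Zfp932, a repressor of endogenous retroviruses, was at 0.02 in brain and -1.10 in liver.

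141 members were tested in both tissues. Of these, 30 were at least 2-fold lower in adult brain and 24 in adult liver, and 11 were lower in both, which is 36.7% of the first list and 45.8% of the second. Over all genes the same shares were 50% and 40.1%. These 11 were Zfp410, Zfp451, Zfp503, Zfp518a, Zfp568, Zfp618, Zfp647, Zfp697, Zfp711, Zfp760 and Zfp995. Zfp410 is known as an activator of Chd4. It differed by -1.73 in brain and -1.69 in liver, and Chd4 by -1.58 and -1.42. None was higher in both. Zfp768 alone went opposite ways, though its liver value turned to -0.19 on the values as deposited. It went from 7.68 to 8.22 down to 6.63 to 7.03 in brain and from 5.87 to 6.45 up to 7.50 to 7.69 in liver.

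The members leaned towards brain. Over the 173 tested in either tissue, with all 72 arrays quantile normalized together, 20 were at least 2-fold higher in brain than in liver in each strain at all 4 stages (11.6%, beside 10.2% of all genes tested) and 1 was lower (0.578%, beside 7.32%). On the values as deposited these counts were 50 and 0. Averaged over stages, 125 of 173 were higher in brain, with a median of 0.53 beside -0.18 over all genes tested. Most of all genes were thus lower in brain by this average, and their exact share was not computed. More members passed the filter in brain (167) than in liver (147), so the lean towards brain may be in part selected, which was not tested. The median member stood 0.48 above liver at E14.5, 0.58 at P1, 0.49 at P7 and 0.27 at P90, while the median gene stood at -0.20, -0.12, -0.15 and -0.19. Few members were higher in liver at all stages, and the share higher in brain at all stages was near that of all genes, while at single stages it was larger.

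**Figure D3:**
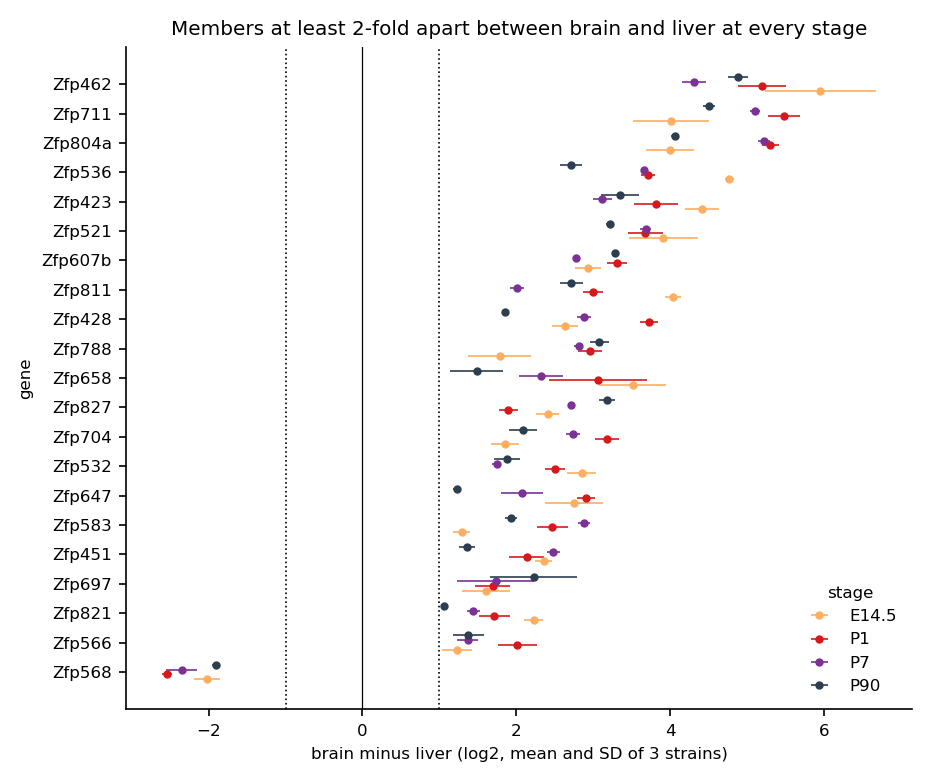
Difference between brain and liver (x axis, log2, mean and SD of 3 strains) at 4 stages (colours) for the 21 members with a difference of 2-fold or more to one side at every stage. Dotted lines mark 2-fold. 20 members lie on the brain side, led by Zfp462 at 4.31 to 5.96, and Zfp568 alone lies on the liver side.

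Zfp462 was the furthest towards brain (5.09 on the log2 scale averaged over stages), followed by Zfp711 (4.78), Zfp804a (4.65), Zfp536 (3.71), Zfp423 (3.68), Zfp521 (3.62), Zfp607b (3.08) and Zfp811 (2.94). Zfp462 was 5.96 higher at E14.5 and 4.89 at P90. In Zfp536 the gap narrowed from 4.77 to 2.71, and in Zfp804a it was widest at P1 (5.31). The liver arrays of these 2 genes lay far below the array median at every stage (3.44 to 4.32 and 3.02 to 3.70). The liver stage medians of all 8 lay below it, so the sizes of these gaps rest on low liver signals. 5 of these 8 belong to the list of neural regulators, which had been made from genes known for that role. Zfp568 stood alone on the other side at -2.21, between -2.54 (P1) and -1.91 (P90).

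The liver side filled up in the adult. 46 members were 2-fold higher in brain at E14.5 (26.6%, beside 16.3% of all genes) and 41 at P90 (23.7%, beside 21.3%), whereas 4 were lower at E14.5 (2.31%, beside 16.5%) and 12 at P90 (6.94%, beside 21%). The 12 were Zfp825 (-2.23), Zfp953 (-1.93), Zfp568 (-1.91), Zfp707 (-1.82), Zfp809 (-1.72), Zfp750 (-1.66), Zfp524 (-1.64), Zfp768 (-1.63), Zfp473 (-1.47), Zfp946 (-1.36), Zfp944 (-1.18) and Zfp592 (-1.11). 6 of them (Zfp825, Zfp707, Zfp809, Zfp750, Zfp768 and Zfp946) were also among the members higher in adult than in fetal liver, a comparison that shares the P90 liver arrays with this one.

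By the brightest probe set of each gene, strain differences were called in few members, and several of them were large. Between DBA/2J and C57BL/6J, averaged over 4 stages, 9 of 167 members were called in brain (5.39%, beside 1.32% of all genes tested) and 7 of 147 in liver (4.76%, beside 2.65%). Between 129S2 and C57BL/6J the counts were 8 in brain (4.79%, beside 1.33%) and 8 in liver (5.44%, beside 3.22%), and between 129S2 and DBA/2J 6 (3.59%, beside 1.11%) and 9 (6.12%, beside 2.67%). Between at least 1 pair, 13 members were called in brain (7.78%, beside 2.23%) and 14 in liver (9.52%, beside 5.33%), which makes 18 different genes, 9 of them called in both tissues. Of the 47 calls, 46 had the same sign at all 4 stages, the exception being Zfp467 between 129S2 and DBA/2J in liver, and in 36 the 2 strains' arrays did not overlap at any stage. Over the 1663 calls of all genes, 85.1% had the same sign and 52.1% did not overlap, beside 97.9% and 76.6% of the members' calls, which were chosen on the average over these stages. These are differences of probe signals, and 9 of the 18 members had a second probe set to compare.

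**Figure D4:**
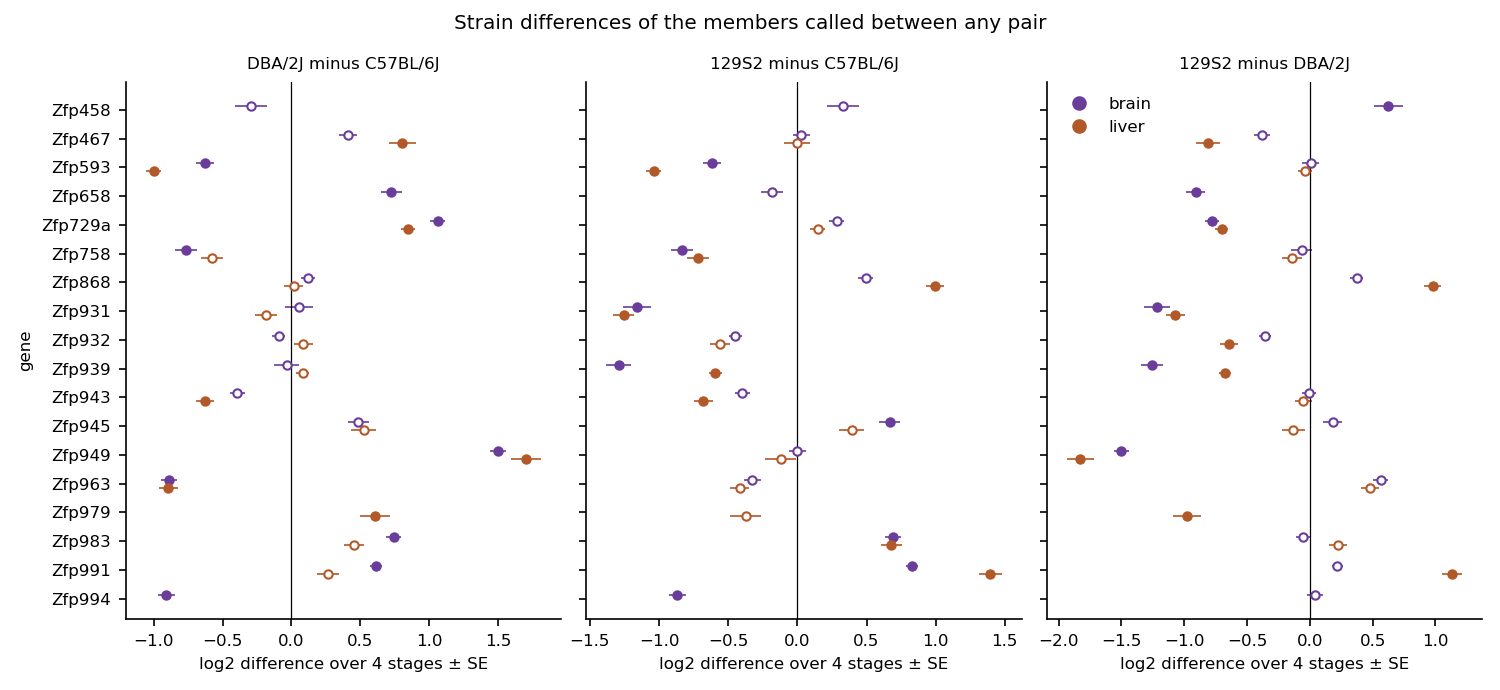
Strain differences averaged over 4 stages (x axis, log2 ± SE) for the 18 members called between any pair, in brain (purple) and liver (brown). Filled points were called at an adjusted p below 0.05 and 1.5-fold, open points were tested and not called, and no point is shown where a gene was not tested. Zfp949 stands far from 0 in both tissues, at 1.70 in liver between DBA/2J and C57BL/6J.

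Zfp949 on chromosome 9 was higher in DBA/2J than in both other strains. In P1 liver the DBA/2J arrays read 8.79, 8.88 and 8.51, the C57BL/6J arrays 6.16, 5.12 and 6.10, and the 129S2 arrays 6.21, 6.02 and 5.82. At no stage in either tissue did DBA/2J overlap another strain. Against C57BL/6J it was 2.83-fold higher in brain (adjusted p = 8e-18, limma) and 3.26-fold in liver, which is 1.70 ± 0.11 (SE) on the log2 scale (adjusted p = 3.4e-13, limma). A second probe set of the gene gave 1.10 and 1.75, called in both tissues (adjusted p = 2.9e-11 and 3.8e-15, limma). The test of strain by stage compares sets normalized apart, so a scale that differs between them could change it. The size of the gap differed between stages. In brain it was 1.68 at E14.5, 1.82 at P1, 1.69 at P7 and 0.81 at P90, and in liver 1.11, 2.93, 2.05 and 0.73, so the gap was smallest in the adult of both tissues (adjusted p for strain by stage = 0.00037 and 1.2e-05, limma).

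Zfp729a, one of a run of 3 members on chromosome 13, was also higher in DBA/2J, by 1.06 ± 0.05 in brain and 0.85 ± 0.05 in liver against C57BL/6J (2.09-fold and 1.80-fold). In P90 brain the DBA/2J arrays read 7.81, 7.85 and 7.82 and the C57BL/6J arrays 6.55, 6.68 and 6.59. They overlapped at no stage. Its second probe set, one of a type that can also bind related sequences, gave 0.44 and 0.45, in the same direction and under 1.5-fold. Zfp658, tested in brain alone, was higher in DBA/2J by 0.73 ± 0.08 against C57BL/6J and by 0.91 ± 0.08 against 129S2.

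Lower in DBA/2J was Zfp963, by -0.89 ± 0.06 in brain and -0.89 ± 0.07 in liver against C57BL/6J (adjusted p = 1.7e-12 and 2e-11, limma). In P90 brain its DBA/2J arrays read 5.11, 5.10 and 5.12, the 129S2 arrays 6.15, 5.72 and 5.92 and the C57BL/6J arrays 6.54, 6.43 and 6.23. DBA/2J lay under C57BL/6J without overlap at every stage of both tissues, and 129S2 lay between them in the mean. Its neighbour Zfp866, which was likewise lower in adult brain, showed no such gap (-0.09 in brain and 0.17 in liver). No pair of neighbouring members was called in the same direction between the same strains.

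A pair of members was lower in 129S2 than in both other strains. Zfp931 differed from C57BL/6J by -1.16 ± 0.10 in brain and -1.26 ± 0.08 in liver, and from DBA/2J by -1.22 ± 0.10 and -1.07 ± 0.08. In P1 brain the 129S2 arrays read 7.59, 7.98 and 7.75, the C57BL/6J arrays 9.26, 9.43 and 9.10 and the DBA/2J arrays 9.65, 9.41 and 9.26. The 129S2 arrays lay below both other strains without overlap at every stage. Its single probe set is of the type that can bind related sequences.

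Zfp939 differed from C57BL/6J by -1.29 ± 0.09 in brain and by -0.59 ± 0.05 in liver, the latter at the edge of 1.5-fold and under it (-0.58 to -0.57) without replicate 1 at E14.5, 2 at P1, 2 at P7 or 3 at P90 of 129S2, or without replicate 2 of P7 C57BL/6J. The difference between the tissues itself passed the test (adjusted p for strain by tissue = 4.5e-07, limma), which compares sets normalized apart. In P7 brain the 129S2 arrays read 7.70, 7.46 and 7.65 and the C57BL/6J arrays 8.61, 8.66 and 8.47. In P7 liver they read 5.81, 5.74 and 5.99 against 6.38, 6.60 and 6.36, a smaller step at a lower signal.

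**Figure D5:**
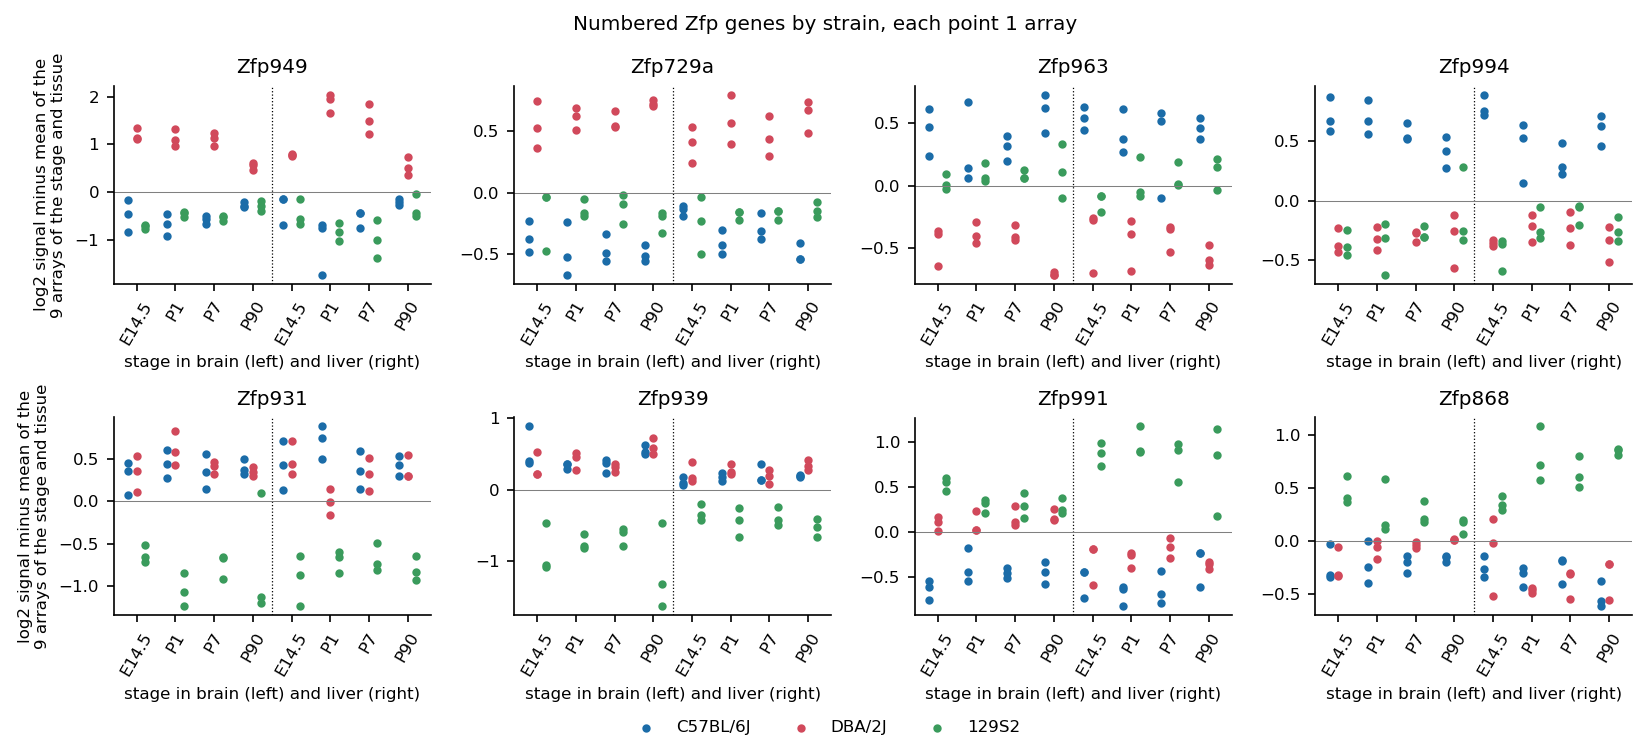
Signal of each array (points) as its distance from the mean of the 9 arrays of its stage and tissue (y axis, log2), for 8 members in 3 strains (colours), with brain stages left and liver stages right of the dotted line. DBA/2J stands apart in Zfp949, Zfp729a and Zfp963, and 129S2 in Zfp931, Zfp939 and, in liver, Zfp991 and Zfp868. C57BL/6J stands apart in Zfp994, which was not tested in liver and entered in brain only through C57BL/6J groups. In P90 brain 1 array of 129S2 lies above its fellows in Zfp931, Zfp939 and Zfp994.

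Both genes show the doubtful 129S2 array in P90 brain. In Zfp931 replicate 2 read 8.80 beside 7.57 and 7.49, and in Zfp939 6.56 beside 5.39 and 5.70, each time towards the other strains (9.02 to 9.19 for Zfp931 and 7.51 to 7.64 for Zfp939 in C57BL/6J). Without it, the P90 brain difference from C57BL/6J was -1.57 in place of -1.14 for Zfp931 and -2.02 in place of -1.69 for Zfp939. The averages over stages were then -1.27 and -1.38. The members called among strains in P90 brain numbered 11 with this array and 13 without it, the added ones being Zfp467 and Zfp709, and over the 4 stages the average of Zfp963 between 129S2 and DBA/2J passed 1.5-fold. Zfp994 stood at -0.51 from C57BL/6J at P90 with the array (not called) and at -0.70 without it (called), and Zfp458 at 1.27 and 1.19.

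Higher in 129S2 was Zfp868 in liver, by 0.99 ± 0.07 against C57BL/6J and 0.98 ± 0.07 against DBA/2J (adjusted p = 8.2e-13 and 1.6e-12, limma). In P90 liver its 129S2 arrays read 6.96, 7.00 and 7.02 beside 5.58, 5.77 and 5.53 in C57BL/6J. In brain the difference was 0.49, which missed 1.5-fold. The test across tissues, with the same limit of scale, called the gene (adjusted p for strain by tissue = 1.6e-07, limma).

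Zfp991 on chromosome 4 was higher in 129S2 liver by 1.40 ± 0.08 against C57BL/6J and 1.13 ± 0.08 against DBA/2J. In E14.5 liver the 129S2 arrays read 8.86, 9.12 and 9.01, the C57BL/6J arrays 7.69, 7.69 and 7.41 and the DBA/2J arrays 7.55, 7.95 and 7.95. In brain it was called against C57BL/6J only (0.83 ± 0.04 for 129S2, 0.61 ± 0.04 for DBA/2J). Its second probe set did not show 129S2 above C57BL/6J in either tissue (-0.14 in brain, -0.22 in liver). For DBA/2J against C57BL/6J it gave the opposite direction, -0.53 in brain and -1.16 in liver (called, adjusted p = 1.8e-12, limma), where the first gave 0.61 and 0.26. Both put 129S2 above DBA/2J in liver (0.93 in the second, adjusted p = 2.2e-10, limma), so the order of C57BL/6J differs between the probe sets.

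C57BL/6J stood apart from both other strains in 5 further members. Zfp983, on chromosome 17, was lower in C57BL/6J, by 0.74 ± 0.06 against DBA/2J and 0.69 ± 0.06 against 129S2 in brain, and its second probe set gave 1.05 and 1.02. Zfp994, tested in brain only, was higher in C57BL/6J (-0.91 ± 0.06 for DBA/2J, -0.87 ± 0.06 for 129S2), as was Zfp758 in brain (-0.77 ± 0.08 and -0.83 ± 0.08). Zfp943 was higher in C57BL/6J liver (-0.63 ± 0.07 and -0.68 ± 0.07), a gap that its second probe set, dim at -2.57 from the array median, did not show (0.01 and 0.03).

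The fifth was Zfp593, a gene of ribosome assembly and so no typical regulator. It was lower in DBA/2J and 129S2 than in C57BL/6J in both tissues, for 129S2 by -0.62 in brain (-0.57 without replicate 1 of E14.5 C57BL/6J, under 1.5-fold) and -1.04 ± 0.06 in liver. In P1 liver the C57BL/6J arrays read 8.49, 8.24 and 8.66 and all 6 others lay between 6.79 and 7.12. The second probe set showed no difference in any of the 4 comparisons (0.03 in brain and 0.04 in liver for DBA/2J, 0.00 and 0.04 for 129S2), so the 2 probe sets of this gene disagree.

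The remaining calls were smaller or rested on fewer stages. Zfp467 was higher in DBA/2J liver by 0.80 ± 0.10 against C57BL/6J, with a second probe set at 0.47. Zfp979, tested in liver only, was lower in 129S2 than in DBA/2J by -0.98 ± 0.11, and Zfp932 by -0.64 there. Zfp979 entered only through E14.5. Its highest quantile-normalized arrays at P1 (4.35), P7 (4.21) and P90 (5.46) lay below the array median, so its average rests in part on low signals. Zfp458 was higher in 129S2 than in DBA/2J brain by 0.63 ± 0.12, of which the adult held the largest share (1.28 at P90, 1.20 without the doubtful array, and 0.23 at P1). Its second probe set gave 0.21, not called. In P90 brain its 129S2 arrays read 6.91, 7.20 and 7.00, beside 5.66 to 5.84 in the other 6. The array medians there were 6.41 to 6.45, and at the earlier stages Zfp458 lay under the array median. Zfp458 thus entered the brain comparison only through the group where it is high, so its call is no independent support. Its average fell under 1.5-fold (0.54 to 0.56) without replicate 1 at E14.5, 3 at P1 or 2 at P7 of 129S2. Zfp945 was higher in 129S2 brain by 0.67 ± 0.08 against C57BL/6J, and its second probe set was lower, by -2.03, so that no direction can be given for this gene. Over all 25 called results of members with a second probe set, 16 had the same sign there and 8 were called in the same direction. Of the members 2-fold apart between E14.5 and P90, 22 in brain and 21 in liver had a second probe set. It had the same sign in 19 and 17 of them and was itself 2-fold apart the same way in 12 and 5.

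The second probe set also gave calls where the first did not. Of 90 members with a second probe set, 11 had such a call in at least 1 comparison, and 8 of these were called nowhere by the first and are not in the counts above. These 8, named after their values were seen, were Zfp420, Zfp697, Zfp704, Zfp712, Zfp719, Zfp788, Zfp790 and Zfp942. Between DBA/2J and C57BL/6J in brain the second probe set gave 2.02 for Zfp704, -1.41 for Zfp788, -1.14 for Zfp942, -1.12 for Zfp790 and -0.85 for Zfp719, where the first gave values from -0.18 to 0.18. The second probe set of Zfp942 was dim, at -2.77 from the array median in brain. Which probe set is nearer to the transcript level was not tested.

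Stage by stage, an F test over the 3 strains called, from E14.5 to P90 in order, 17, 16, 11 and 11 members in brain (6.3%, 2.59%, 2.44% and 3.39% of all genes tested). In liver it called 18, 19, 15 and 21 (7.5%, 12.5%, 10.5% and 11.4% of all genes). In brain the share of members was 10.2% at E14.5 and 6.59% at P90, and in liver 12.2% and 14.3%. Strain differences that varied with stage were called in 7 members in brain (4.19%, beside 5.06%; 4 to 10 when any 1 array was left out) and 38 in liver (25.9%, beside 31%), where averaged probe sets gave 24, and those that varied with tissue in 6 (3.47%, beside 4.58%). The 18 members called between strains lay on 9 chromosomes, with 5 on chromosome 17 and 3 on chromosome 4. None of the 19 genes of the repression pathway was called between strains in either tissue. Of all genes 2.23% were called in brain and 5.33% in liver, so little is read from this in so short a list. Among the 19, Atf7ip was lower in DBA/2J and 129S2 than in C57BL/6J, by -0.42 and -0.36 in brain and -0.39 and -0.46 in liver. These gaps had adjusted p at or below 1.2e-06 (limma) and missed 1.5-fold.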

How the data were processed

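The authors deposited log2 RMA signals of 45101 probe sets for 72 Affymetrix arrays, per the submitters' processing notes, which give no version of RMA. Exactly equal values occurred only between arrays of the same tissue and stage, so these 8 sets had been normalized apart and cannot be tested against each other. Sizes are given in place of such tests. The tests of strain by stage and strain by tissue compare strain differences between these sets. A scale that differs between sets could therefore change them. Arrays were quantile normalized per tissue for stages and together for tissues. Signals have no molecule count behind them, so precision rests on the number of arrays.

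Symbols came from the platform annotation, and positions and promoters from RefSeq (GRCm38.p6). A gene was tested where its highest group mean exceeded the array median. Strains were compared on the values as deposited with limma 3.58.1 in R 4.3.3, with 1 mean per group and Benjamini-Hochberg adjustment over all genes tested, which was checked on simulated data. The labels do not tie arrays of the same number to an animal. Same-numbered pairs correlated above 0.1 in 27 of 72 cases between strains (31 of 144 otherwise). Between tissues they did in 19 of 36 (8 of 72 otherwise). Not every pair did, so the block was an alternative only. It joined the strains of a tissue and stage, and the strain by tissue test took brain and liver arrays as independent.

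Genes were named by rank: the 8 highest and 8 lowest per stage or tissue comparison, the 6 highest and 6 lowest per strain comparison, the 6 strongest interactions, the 5 highest levels, neighbours called together and the listed regulators. Zfp932, the members with large single steps, and Zfp410 beside Chd4 were named after their values were seen. The members and lists were chosen with earlier results of these data known. Alternatives covered filters, normalization, probe sets, fold minimum, variance model, weights, the replicate block and leaving out each array.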

Additional observations from a re-analysis of the deposited data

Results flagged for a closer look

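Strain differences depended on stage in 7 members in brain by the interaction test (limma, adjusted over all genes tested), of which the 6 strongest are given. The count was 4 with 2 other filters on low values and without any 1 of 15 of the 36 arrays. For each, the value is the largest change of a strain difference between any 2 stages on the log2 scale. In Zfp949 it was 1.08 (adjusted p = 0.00037), from a gap between DBA/2J and C57BL/6J of 1.68 at E14.5 and 1.82 at P1 to 0.81 at P90. In Zfp983 it was 0.82 (adjusted p = 0.0022), since DBA/2J exceeded C57BL/6J by 0.21 at E14.5 and 1.03 at P90. In Zfp804a it was 0.73 (adjusted p = 0.0025). There DBA/2J stood at -0.65 from C57BL/6J in the fetal brain and between -0.10 and 0.08 at the other 3 stages. Zfp943 changed by 0.65 (adjusted p = 0.015), from -0.83 at E14.5 to -0.17 at P90 for DBA/2J. Zfp458 changed by 1.40 (adjusted p = 0.044), with 129S2 at -0.14 from C57BL/6J at E14.5 and 1.27 at P90. It entered only through that adult 129S2 group, where it is high. Zfp874b changed by 0.62 (adjusted p = 0.047), with its widest gap of 0.42 at P7.

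In liver the members with the strongest dependence on stage were again led by Zfp949 at 2.20 (adjusted p = 1.2e-05), whose gap was 2.93 at P1 and 0.73 at P90. Zfp639, a zinc finger gene with a gap between DBA/2J and C57BL/6J of -0.06 at E14.5 and -0.66 at P90, changed by 0.67 (adjusted p = 0.00015). Zfp839 changed by 0.71 (adjusted p = 0.0004), Zfp948 by 1.10 (adjusted p = 0.00042) and Zfp667 by 0.71 (adjusted p = 0.0011). In Zfp948 the sign turned, with DBA/2J at 0.75 from C57BL/6J at E14.5 and -0.35 at P1. In Zfp467 the change was 1.76 (adjusted p = 0.00057). There 129S2 stood below DBA/2J up to P7 (-0.95, -1.53 and -0.98) and above it in the adult (0.23).

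The gap between strains differed between brain and liver in 6 members, with the same limit of scale. In Zfp991 the change was 0.91 (adjusted p = 1.2e-10), with 129S2 above DBA/2J by 0.22 in brain and 1.13 in liver. In Zfp658 it was 0.83 (adjusted p = 1.7e-09), a gene tested in brain alone for pairs of strains because its signal in liver did not pass the filter. Zfp868 changed by 0.61 (adjusted p = 1.6e-07), with 129S2 above DBA/2J by 0.37 in brain and 0.98 in liver. Zfp697 changed by 0.72 (adjusted p = 1.7e-07) and in sign, with DBA/2J at -0.30 from C57BL/6J in brain and 0.42 in liver, although neither gap alone reached 1.5-fold. Zfp939 changed by 0.70 (adjusted p = 4.5e-07), the larger gap being in brain. Zfp618 changed by 0.59 (adjusted p = 3.3e-05), with DBA/2J above C57BL/6J by 0.09 in brain and 0.50 in liver.

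Zfp768 moved in opposite directions in the 2 tissues between E14.5 and P90, by -1.18 in brain and 1.36 in liver, in all 3 strains. The difference between the tissues was not tested.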

How the results depend on the processing

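The named differences between pairs of strains kept direction and call under array weights, a trended and robust variance, per-array centring, no filter and a fit of only the 2 strains compared. Quantile normalization took Zfp458 (0.58) and Zfp939 in liver (-0.57) under 1.5-fold. The replicate block changed no named pair of strains and no named call by stage in liver or by tissue. It joined the strains within a tissue and stage and did not pair brain with liver, so that pairing was not tested. In brain it left 4 in place of 7 members with a strain difference that varied with stage, without Zfp458 (adjusted p = 0.056), Zfp874b (0.086) and Zfp943 (0.059, limma). That count was the least settled, at 4 without a filter, with the stricter filter and with averaged probe sets, 13 with array weights and 4 to 10 when 1 array was left out, where 15 of 36 arrays took it to 4. Under the stricter filter the strain counts in brain fell to 5 (DBA/2J) and 4 (129S2) against C57BL/6J and to 7 at P7 and 7 at P90 in the F test, adult-higher members to 2 and steps apart to 0 (P1 to P7) and 12 (P7 to P90). The filter on the mean gave 12 in P1 liver, and fitting the 9 arrays alone 10 in E14.5 brain. Averaged probe sets gave 4 and 4 against C57BL/6J in liver, 9 in P7 liver, 24 by stage in liver, 13 lower in adult liver, and 3 and 0 for the first 2 brain steps. They reversed Zfp945 in brain (-0.47 for 129S2 against C57BL/6J), and Zfp593, Zfp467, Zfp943 and, for 129S2 against C57BL/6J in liver, Zfp991 fell under 1.5-fold. Without a fold minimum the strain counts were 35, 29 and 23 in brain and 44, 38 and 31 in liver (DBA/2J and 129S2 against C57BL/6J, then 129S2 against DBA/2J), 33 and 22 in E14.5 and P90 brain, 30, 49, 34 and 32 by stage in liver, and 36 by tissue. At 1.5-fold in each strain, 62 members were lower and 14 higher in adult brain, 40 lower in adult liver and 4 lower in brain than liver, and the steps held 26, 10 and 51 in brain and 39, 2 and 37 in liver. As deposited, without a common scale, 98 and 114 were lower in adult brain and liver, 0 and 0 higher, 66 and 78 apart after P7, and 50 higher and 0 lower in brain than liver. There Zfp945 (-0.19) and Zfp768 (-0.19) reversed in liver. Centring gave 8 higher in adult brain.

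Leaving out 1 array took Zfp979 between DBA/2J and C57BL/6J in liver (0.54 to 0.58, without replicate 3 at E14.5, 1 at P1 or 1 at P7 of C57BL/6J, or without replicate 2 or 3 at E14.5, 1 at P1, 1 at P7 or 3 at P90 of DBA/2J), Zfp939 in liver (-0.58 to -0.57 without any 1 of 5), Zfp458 (0.54 to 0.56 without any 1 of 3) and Zfp593 in brain (-0.58 and -0.57 without C57BL/6J E14.5 replicate 1) under 1.5-fold, with adjusted p from limma at or below 0.00049. A gene that a filter left untested has no value there, and where the construction of an alternative does not show it, the cause was not tested.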
